A study of Mus musculus with 24 samples.

Results

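Splicing factors were examined as a family of 69 protein-coding genes among the 21519 protein-coding genes, and 45706 genes in all, of the deposited count table. A gene was taken in when its mouse symbol began with Srsf and a digit, Hnrnp, Sf3a, Sf3b, Prpf and a digit, or Snrp, or was one of Clk1 to Clk4. They fell into 11 SR genes (Srsf), 20 Hnrnp genes, 4 Clk kinases, 9 SF3 genes, 13 Prpf genes and 12 Snrp genes. The SR and Hnrnp genes (31) are called regulatory here and the SF3, Prpf and Snrp genes (34) core. 4 further symbols matched but were pseudogenes and were left out.

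The libraries came from tissue-resident macrophages (TRMs) of female C57BL/6J mice, aged 8 weeks per the methods and 8 to 12 weeks per the labels. Microglia (MG), Kupffer cells (KC), peritoneal macrophages (PM) and alveolar macrophages (AM) were each measured ex vivo, after flow cytometric sorting, and in vitro, as TRM-like cells (LCs), with 3 libraries in each of the 8 groups. Sorting gates were CD45 and CD11b for MG, these with F4/80 and TIM-4 for KC, these with F4/80 and CD115 for PM, and CD45, CD11b and SiglecF for AM. The LCs were grown for 14 days on polyethylenimine and were not sorted afterwards. A flask pooled cells of 3 animals for brain, lung and peritoneum, and of 1 animal for liver. KC-LCs and PM-LCs received M-CSF, MG-LCs M-CSF and IL-34, and these 3 had high glucose and 3% oxygen. AM-LCs received GM-CSF without glucose at atmospheric oxygen. Liver and lung were digested for 30 min, whereas brain was homogenised and the peritoneum was washed out. Where a replicate is named below, its number is the one in the labels, and no label says which animals stand behind it, so p-values measure the spread between these libraries.

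Splicing removes introns from pre-mRNA in a particle built from small nuclear ribonucleoproteins (snRNPs). U1 and U2 snRNP mark the ends of the intron, and SF3 proteins hold U2 at the branch point. The Prpf proteins belong mostly to the U4/U6.U5 tri-snRNP and the steps that follow. The Snrp genes encode the Sm ring around most snRNAs and proteins of U1 and U2. SR proteins bind exons and recruit this machinery, hnRNP proteins often compete with them, and Clk kinases phosphorylate the arginine-serine tails of SR proteins. Many of these genes also make transcripts with poison exons or retained introns that yield no protein. Counts per gene do not separate those from productive mRNA, and in bulk samples fewer cells of a type and less RNA per cell cannot be told apart.

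Libraries held 29569486 to 47105111 reads assigned to genes (median 35965750). The 6 general macrophage markers, among them Csf1r and Adgre1, were above 1 CPM (counts scaled to the library total) in every library. The summed markers of each population were 22160 to 22920 CPM in sorted MG against 506 to 3426 in MG-LCs, 13900 to 24810 against 17.0 to 94.1 for KC, 8247 to 8510 against 78.8 to 93.4 for PM, and 20810 to 23790 against 2508 to 9471 for AM. The 8 fibroblast and mesothelium markers summed to 30980, 7.39 and 1012 CPM in MG-LC libraries 1, 2 and 3, to 22.9, 2209 and 366 in the PM-LC and to 17.05, 182 and 1668 in the AM-LC libraries, and to at most 29.8 in every KC-LC library and 23.8 in every sorted library. Among sorted KC, library 1 stood apart, with the lowest sum of KC markers (13900 CPM) and the highest sum of proliferation genes (527 CPM against 157 and 203). Its T cell markers summed to 194 CPM (against 32.9 and 28.9), its neutrophil markers to 131 (83.2 and 2.03) and its B cell markers to 437 (212 and 314). Endothelial markers summed to 422, 727 and 839 CPM in sorted KC libraries 1, 2 and 3. Among the PM-LCs, B cell markers summed to 337 CPM in library 1 against 25.9 and 51.4 in libraries 2 and 3. The part of these differences in the results below was not tested, except where values without a library are given.

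Of the 69 genes, 68 passed the filter on low counts in at least 1 comparison. Srsf12, an SR relative with a restricted expression pattern, passed it in none, with at most 28 reads in any library. Snrpn passed it only for MG and KC. Per kilobase of exon, the family stood high among protein-coding genes, at a median percentile of 78.9. Snrpb, which encodes the shared SmB subunit, stood highest at 110 CPM per kb (percentile 97.7), ahead of Srsf9 at 74.3, Srsf5 at 71.6, Hnrnpa2b1 at 68.4 and Hnrnpab at 65.5 CPM per kb. Hnrnpa1 (percentile 40.2) and Hnrnpa3 (40.3) stood low although hnRNP A1 is an abundant protein. Both share 50-base stretches with other annotated genes (34.3% and 53.1% of their stretches), as do Snrpf (89.6%), Hnrnpf (65.5%), Sf3b4 (45.4%), Srsf4 (42.2%) and Srsf2 (32.5%). Smaller shares were found for Hnrnpab (30%), Snrpg (18.5%), Clk3 (16.7%), Snrpe (16.2%) and Prpf31 (12%), among others. Reads of these genes may have been split with copies or with overlapping genes, so their values are uncertain. For Clk1, Clk2, Clk4, Hnrnph1, Prpf38b, Prpf4b, Sf3b5 and Sf3b6 the share of such stretches was under 2%. Srsf4, Srsf2 and Snrpf share 1532, 748 and 735 exonic bases with genes on the opposite strand. Prpf31, Hnrnpab, Prpf39 and Sf3a2 likewise share 984, 809, 599 and 429 bases. The library kit does not mark strand, so the values of these genes are uncertain too. Of the 69 genes, 28 share exonic bases with another gene on either strand.

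RefSeq promoter windows were at hand for 60 of the 69 genes and for 27025 genes in all (assembly GRCm38.p6, 250 bases before the start, both strands searched). Clk1, Hnrnpll, Hnrnpul2, Sf3b4, Sf3b5, Prpf18, Snrpb and Snrpd1 were among those with none. A gene was counted when any of its windows held the motif. The GC box GGGCGG was found for 42 of the 60 genes (70%) against 35.4% of all genes with a window. It was found for 10 of 11 SR, 14 of 18 Hnrnp, 3 of 3 Clk, 4 of 7 SF3, 6 of 11 Prpf and 5 of 10 Snrp genes. The ETS core CCGGAAG was in 19 (31.7%) against 7.83%, with 6 of 7 SF3 genes among them. The cyclic AMP response element TGACGTCA was in 3 (Clk4, Snrpa and Snrpg; 5%) against 1.77%, and the E-box CACGTGAC in 5 (8.33%; Hnrnpd, Clk2, Prpf3, Prpf39 and Snrpa) against 2.11%. Matches of different motifs can overlap at their ends, and each was counted. A match of letters is a description of the window and not a site of binding. The 150 bases before the RefSeq start are shown for 2 kinases and 1 Prpf gene that were higher ex vivo, with the GC box and cyclic AMP element in capitals on either strand. The GENCODE gene of Clk4 begins further upstream, so this window lies inside the coordinates given for Clk4 below. Every stretch is written 5′ to 3′ on the strand of its gene. They lie at chr3:89164645-89164794 (plus strand) for Clk2, chr11:51262964-51263113 (plus) for Clk4 and chr3:108911730-108911879 (minus) for Prpf38b.
Clk2: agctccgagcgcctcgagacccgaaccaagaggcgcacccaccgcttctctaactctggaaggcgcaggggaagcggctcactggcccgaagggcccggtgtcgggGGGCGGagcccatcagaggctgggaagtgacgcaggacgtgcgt
Clk4: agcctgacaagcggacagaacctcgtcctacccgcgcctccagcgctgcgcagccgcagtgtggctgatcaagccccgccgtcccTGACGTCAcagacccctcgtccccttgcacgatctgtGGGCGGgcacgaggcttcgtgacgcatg
Prpf38b: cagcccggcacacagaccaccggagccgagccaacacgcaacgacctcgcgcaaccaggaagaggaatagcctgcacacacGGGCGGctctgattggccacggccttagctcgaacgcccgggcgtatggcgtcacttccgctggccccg

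The question of each comparison between ex vivo and in vitro libraries was how cultured cells differed from the same population in the animal. A gene was called at an adjusted p under 0.05 (edgeR quasi-likelihood test, Benjamini-Hochberg over all genes tested). In MG, 17 of 68 splicing factors were higher ex vivo and 12 were higher in vitro, against 21.2% and 25.2% of all genes. In KC, 11 of 68 were higher ex vivo and 4 in vitro, against 19.4% and 14.4%. In PM, 14 of 67 were higher ex vivo and 1 in vitro, against 12.1% and 16.8%. In AM, 35 of 67 were higher ex vivo and 3 in vitro, against 22.9% and 25.9%. Among genes with an average log2 CPM of at least 5, where most splicing factors lie, the background was 21% and 29.6% in MG, 17.7% and 22.7% in KC, 13% and 24% in PM, and 30.8% and 31.1% in AM. As a family the ex vivo counts were therefore near the background in MG and KC and above it in PM and AM, and the in vitro counts lay below it in all 4 populations. Sorted and cultured libraries did not overlap for 25 (higher ex vivo) and 15 (higher in vitro) splicing factors in MG, 18 and 13 in KC, 29 and 3 in PM, and 41 and 3 in AM. Over all genes that held for 35.3% and 30.1% in MG, 27% and 27.1% in KC, 24.4% and 24.4% in PM, and 30.7% and 31% in AM. The median log2 fold change (ex vivo over in vitro) of the family was 0.08 in MG, 0.29 in KC, 0.36 in PM and 0.53 in AM, against medians of all genes of -0.03, 0.01, -0.01 and -0.04. Without composition scaling, with library size only, the median of all genes moved to 0.20, 0.21, 0.10 and 0.33, and the calls (ex vivo, in vitro) became 22 and 9 in MG, 14 and 2 in KC, 20 and 0 in PM, and 51 and 0 in AM. Calls over all genes moved too, to 3965 and 2966 of 14416 in MG and 3058 and 1381 of 13629 in KC. They were 1992 and 2013 of 13581 in PM, and 4576 and 2331 of 13196 in AM. With composition scaling they were 3063 and 3633, 2644 and 1964, 1637 and 2284, and 3019 and 3412.

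The counts of splicing factors changed when single libraries were left out. Such fits have fewer samples, and the share of all genes called in them was not counted. Leaving out sorted MG library 1, 2 or 3 left 7 genes higher ex vivo in each case, and 5, 7 and 5 higher in vitro. For KC, 6 genes were higher ex vivo without KC-LC library 2, 9 were higher in vitro without sorted KC library 1, and 1 without sorted KC library 3 or without KC-LC library 1, 2 or 3. For PM, 5 were higher ex vivo without sorted library 1, 7 without sorted library 2 or 3, 6 without PM-LC library 1 and 24 without PM-LC library 3. The 1 PM gene higher in vitro, Sf3b4, was lost without each of the 6 libraries (adjusted p up to 0.175), and the count became 3 without PM-LC library 3. For AM, none was higher in vitro without sorted library 2 or 3, and 1 without AM-LC library 2, where the edgeR test of all libraries had 3 (4 at an unadjusted p under 0.05).

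Behind the family counts the classes differed in their medians. All 4 Clk genes had log2 fold changes above 0 in all populations, with class medians of 1.70 in MG, 1.18 in KC, 0.65 in PM and 0.69 in AM. SR medians were 0.64, 0.40, 0.44 and 0.46, and Hnrnp medians 0.12, 0.39, 0.70 and 0.73, in the same order. Among the core genes the Prpf medians were 0.21, 0.32, 0.34 and 0.47 and the SF3 medians -0.17, 0.15, 0.24 and 0.33. Snrp medians were -1.05 in MG, -0.51 in KC, 0.09 in PM and 0.14 in AM. In MG 9 of 30 regulatory genes were higher ex vivo (30% against 21.2% of all genes) and 3 in vitro (10% against 25.2%). Of 34 core genes in MG, 5 were higher ex vivo (14.7%) and 9 in vitro (26.5%, near the share of all genes). In AM 20 of 30 regulatory genes were higher ex vivo (66.7% against 22.9%) and none in vitro (0 also at an unadjusted p under 0.05, and by limma-voom and DESeq2), and of 33 core genes 12 were higher ex vivo (36.4%) and 3 in vitro (9.09% against 25.9%). In PM 10 of 30 regulatory genes were higher ex vivo with edgeR (33.3% against 12.1%), 12 with limma-voom and 14 with DESeq2. Higher in vitro were 0 with each (0 also at an unadjusted p under 0.05). Of 33 core genes in PM, 2 were higher ex vivo (6.06%) and 1 in vitro (3.03% against 16.8%). In KC 4 of 30 regulatory genes were higher ex vivo (13.3% against 19.4%) and 2 in vitro (6.67% against 14.4%). Of 34 core genes in KC, 5 were higher ex vivo (14.7%) and 2 in vitro (5.88%).

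**Figure D1:**
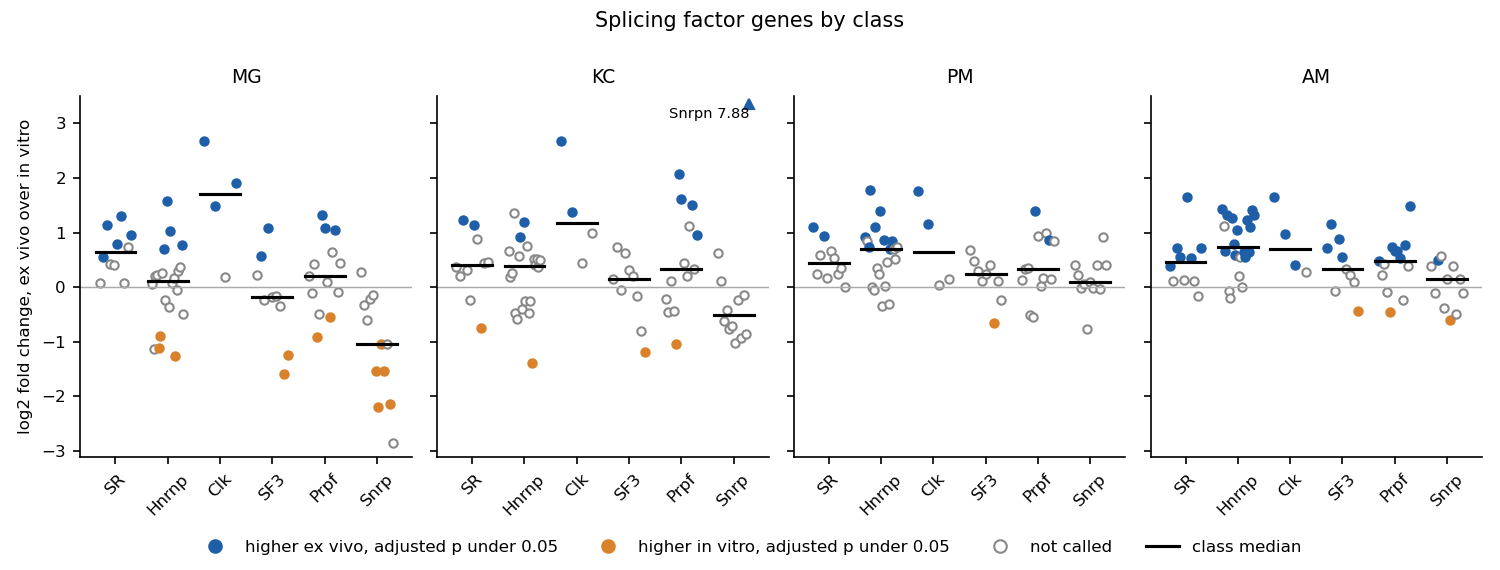
Log2 fold change, ex vivo over in vitro, of each splicing factor (1 point per gene) by class, in 1 panel per population, with filled points for genes at an adjusted p under 0.05 and a line at each class median. The Clk genes lie above 0 in all panels, and the Snrp median runs from -1.05 in MG to 0.14 in AM.

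Over the mean of the 4 populations, in 1 model of all 24 libraries, 35 of 68 splicing factors were higher ex vivo and 14 in vitro, against 24.9% and 31.6% of all genes, with a median log2 fold change of 0.28 against -0.08 for all genes. With library size only the calls were 43 and 8, and the median of all genes moved to 0.15. Calls over all 17408 genes then moved from 4340 and 5497 to 5557 and 4235. Without the 4 LC libraries that held most of the fibroblast marker sum of their group (MG-LC 1, KC-LC 3, PM-LC 2 and AM-LC 3) the calls of splicing factors were 33 and 10. The regulatory genes gave 20 higher ex vivo and 3 in vitro, the Clk kinases 4 and 0 (0 in vitro also unadjusted and by limma-voom and DESeq2), and the core genes 11 and 11. By class, 8 of 10 SR, 12 of 20 Hnrnp, 3 of 9 SF3, 7 of 13 Prpf and 1 of 12 Snrp genes were higher ex vivo, and 0, 3, 3, 2 and 6 were higher in vitro. One of those 6, Snrpn, rests on groups with 0 reads and is described below. In separate tests of the populations, 5 genes were called higher ex vivo in all 4, namely Clk1, Clk2, Hnrnph1, Prpf38b and Prpf4b, and 4 in 3 of them, namely Srsf4, Srsf11, Hnrnpdl and Prpf39. Sf3b6 was called higher in vitro in 3. Hnrnpll was called in opposite directions in different populations, and 17 genes were called in none. Such counts over the populations were not made for all genes, so these have no background beside them.

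Clk1 (ENSMUSG00000026034, chr1:58410189-58424066, minus strand), a kinase of SR proteins whose own transcript is known to be held in the nucleus with retained introns, was the member with the largest mean difference between ex vivo and in vitro. In sorted MG it stood at 253, 237 and 249 CPM, against 21.3, 29.7 and 62.2 CPM in MG-LCs. Sorted KC had 116, 255 and 183 CPM and KC-LCs 17.0, 33.3 and 38.3 CPM. Sorted PM had 144, 129 and 157 CPM and PM-LCs 45, 27.1 and 54.4 CPM. The sorted and cultured libraries did not overlap in any population, AM included, where sorted cells had 67.4, 62.8 and 63.1 CPM and AM-LCs 17.0, 28.1 and 16.8 CPM. The log2 fold change of Clk1 was 2.67 ± 0.42 (SE, adjusted p = 0.00483) in MG, 2.67 ± 0.41 (0.00334) in KC, 1.77 ± 0.28 (0.0035) in PM and 1.64 ± 0.21 (0.000924) in AM. None of the 4 differed from the mean of the other 3 populations at an adjusted p under 0.05 (the smallest was 0.281, for AM, with a difference of -0.73 ± 0.42). The MG-LC library with the most fibroblast RNA, library 1, had the lowest Clk1 of its group, and no call of Clk1 was lost without any single library.

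Clk2 (ENSMUSG00000068917, chr3:89164795-89176921, plus strand), a nuclear kinase of the same family, was also separated in every population. It stood at 78.8, 77.2 and 79.6 CPM in sorted MG against 21.5, 20.8 and 39.1 CPM in MG-LCs. Sorted KC had 67.4, 67.5 and 53.9 CPM against 23.4, 22.7 and 28.9 CPM, a log2 fold change of 1.37 ± 0.23 (adjusted p = 0.00461). In PM and AM the sorted values were 51.1, 43.0 and 46.2 CPM and 37.7, 42.2 and 51.9 CPM, against 18.3, 15.7 and 28.5 CPM and 20.7, 27.6 and 18.4 CPM. Fold changes fell from 1.49 ± 0.27 in MG to 1.16 ± 0.27 in PM and 0.98 ± 0.19 in AM (adjusted p = 0.00755, 0.0171 and 0.0052), a difference between populations that did not pass the interaction test (smallest adjusted p = 0.426). In PM the call was lost without sorted library 1, 2 or 3 or PM-LC library 1 (adjusted p up to 0.0631).

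Clk4 and Clk3 did not follow this pattern throughout. Clk4 (ENSMUSG00000020385, chr11:51261730-51281766, plus strand), the nearest relative of Clk1, stood at 126, 116 and 128 CPM in sorted MG against 22.7, 30.6 and 42.5 CPM in MG-LCs (log2 fold change 1.91 ± 0.25, adjusted p = 0.00279). In KC, PM and AM its fold change was 1.00 ± 0.37, 0.14 ± 0.24 and 0.27 ± 0.19, with adjusted p of 0.0714, 0.688 and 0.275. The MG value exceeded the mean of the other 3 by 1.49 ± 0.35 on the log2 scale (interaction, adjusted p = 0.00439). Sorted PM had 51.0, 50.6 and 55.6 CPM of Clk4 and PM-LCs 61.1, 33.8 and 47.9 CPM, so those groups overlapped. Clk3, a kinase with a prominent role in male germ cells, stood between 33.9 and 70.9 CPM in all 24 libraries, the narrowest range of the 4. It was called only in AM, at 67.3, 64.6 and 65.0 CPM against 47.2, 54.2 and 46.2 CPM (0.41 ± 0.11, adjusted p = 0.0192). That call was lost without any sorted AM library or AM-LC library 1 or 3 (adjusted p up to 0.0594), and when all 24 libraries were fitted together (0.0754). Clk3 shares 1284 exonic bases with Edc3 on the opposite strand, and the library kit does not mark strand.

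**Figure D2:**
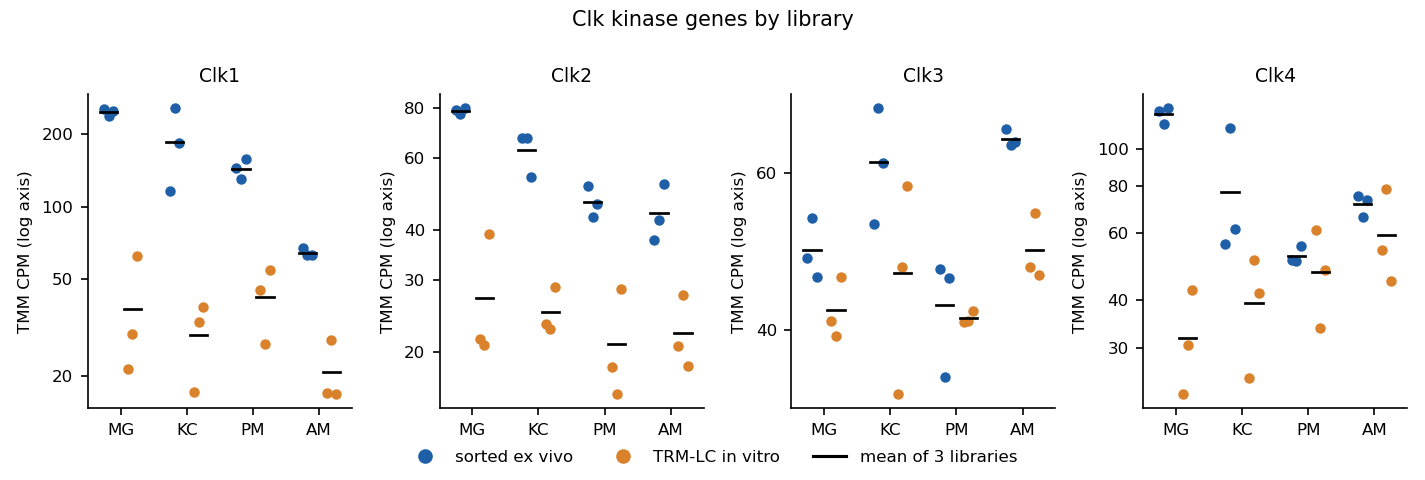
CPM of Clk1, Clk2, Clk3 and Clk4 in every library (points, log axis), ex vivo beside in vitro for each population, with bars at the group means. For Clk1 and Clk2 the 3 sorted libraries lie above the 3 cultured ones in each population, and for Clk4 so in MG and KC.

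Per kilobase of exon, the order of the kinases differed between the groups. In sorted MG Clk1 led with 30.3 ± 1.02 CPM per kb (SD, n = 3), followed by Clk4 at 21.3 ± 1.08, Clk2 at 14.8 ± 0.23 and Clk3 at 5.82 ± 0.46. In MG-LCs the 4 lay between 4.64 ± 2.66 (Clk1) and 5.51 ± 1.72 (Clk4) CPM per kb and did not differ beyond their spread. In sorted AM Clk4 led with 12.3 ± 0.82 CPM per kb, while Clk1, Clk2 and Clk3 lay between 7.77 and 8.29 CPM per kb.

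Among the SR genes, Srsf11 and Srsf4 were called higher ex vivo in 3 populations each. Srsf11, an SR-related protein of nuclear speckles, stood at 187, 169 and 201 CPM in sorted MG against 73.4, 68.8 and 103 CPM in MG-LCs. Its log2 fold change was 1.14 ± 0.21 in MG, 1.22 ± 0.23 in KC, 0.59 ± 0.19 in PM and 0.72 ± 0.14 in AM (adjusted p = 0.00791, 0.00633, 0.0557 and 0.00562), and sorted and cultured libraries did not overlap in any of them. Srsf4, one of the large SR proteins, stood at 23.6, 26.0 and 24.5 CPM in sorted AM against 8.33, 8.48 and 6.71 CPM in AM-LCs, a fold change of 1.65 ± 0.17 (adjusted p = 4e-04). In the other populations it was 0.79 ± 0.18 (MG, 0.0159), 1.14 ± 0.28 (KC, 0.0169) and 0.66 ± 0.21 (PM, 0.0563). The AM value exceeded the mean of the others by 0.79 ± 0.19 (interaction, adjusted p = 0.00713), which was not called without the filter on low counts (0.0574). The Srsf4 call was lost in MG without any sorted library and in KC without any KC-LC library (adjusted p up to 0.083 and 0.0693). Srsf4 shares 1532 exonic bases with Gm12992 on the opposite strand, so its values in all groups are uncertain.

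Srsf5 was the SR gene with the highest CPM and stood at 602, 614 and 688 CPM in sorted MG against 152, 264 and 339 CPM in MG-LCs. Its fold change was 1.29 ± 0.33 in MG (adjusted p = 0.0211), 0.87 ± 0.30 in KC (0.0572), 0.54 ± 0.30 in PM (0.221) and 0.53 ± 0.13 in AM (0.0124). Without any single sorted MG library its MG call was lost (adjusted p up to 0.0789), and the AM call was lost without sorted AM library 3 (0.0553) and when all 24 libraries were fitted together (0.174). Srsf9 was higher ex vivo in MG (192, 201 and 194 CPM against 112, 92.2 and 86.9 CPM; 0.96 ± 0.18, adjusted p = 0.00769) and in AM (0.72 ± 0.14, 0.0043). In PM its groups overlapped (104, 93.0 and 94.8 CPM against 95.2, 107 and 89.7 CPM), and PM lay 0.72 ± 0.18 below the mean of the others (interaction, adjusted p = 0.0108).

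Srsf1, the founding member of the family, showed its largest difference in PM, with 124, 116 and 119 CPM in sorted cells against 47.9, 57.1 and 62.4 CPM in PM-LCs (1.10 ± 0.17, adjusted p = 0.00357). In AM it was 0.39 ± 0.12 (0.0324), a call lost without any sorted AM library or AM-LC library 2 or 3 (adjusted p up to 0.1), without the filter (0.0514) and in the fit of all 24 libraries (0.151), and in MG and KC 0.08 ± 0.22 and 0.37 ± 0.28. PM differed from the mean of the others by 0.81 ± 0.24 (interaction, adjusted p = 0.0259). That difference was not called without any sorted PM library or PM-LC library 1 (adjusted p up to 0.0978), with library size only (0.0992) or without the filter (0.0567). Srsf2, a speckle protein also known as SC35, was higher ex vivo in PM (169, 131 and 117 CPM against 55.9, 84.7 and 76.7 CPM; 0.94 ± 0.23, adjusted p = 0.0218) and in AM (0.55 ± 0.16, 0.0249). The PM call of Srsf2 was lost without sorted PM library 1 or 2 or PM-LC library 1, and the AM call without sorted AM library 1 or 3 or AM-LC library 3 (adjusted p up to 0.0897 and 0.0935) and in the fit of all 24 libraries (0.112).

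Srsf10, a splicing repressor when dephosphorylated, was called in MG alone (51.0, 51.3 and 46.6 CPM against 30.8, 33.0 and 34.2 CPM; 0.56 ± 0.13, adjusted p = 0.0177), and not without any 1 of the sorted MG libraries (adjusted p up to 0.0924). Srsf6 was the only SR gene called higher in vitro, in KC, at 89.3, 102 and 96.5 CPM in sorted cells against 194, 148 and 152 CPM in KC-LCs (-0.74 ± 0.21, adjusted p = 0.0304). That call was kept without sorted KC library 1 and lost without each of the other 5 libraries (adjusted p up to 0.0947), with library size only (0.116) and without the filter (0.0607). The interaction, with KC 0.94 ± 0.20 below the others (-0.94, adjusted p = 0.00375), was called without every single library. Srsf3 and Srsf7 were called in no population, with fold changes from -0.23 to 0.41 and from -0.16 to 0.73.

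Hnrnph1 (ENSMUSG00000007850, chr11:50376990-50386528, plus strand), which binds runs of guanine, led the Hnrnp genes. Sorted MG had 211, 190 and 215 CPM and MG-LCs 77.0, 55.8 and 65.9 CPM, a log2 fold change of 1.58 ± 0.19 (adjusted p = 0.0023). The sorted values were 85.7, 110 and 87.7 CPM in KC, 141, 102 and 135 CPM in PM and 71.1, 70.5 and 79.0 CPM in AM. Their cultured counterparts had 53.3, 39.2 and 34.9 CPM, 45.5, 32.2 and 65.4 CPM, and 40.8, 32.7 and 32.5 CPM, so no pair of groups overlapped. Fold changes were 1.19 ± 0.25 in KC, 1.40 ± 0.29 in PM and 1.05 ± 0.13 in AM (adjusted p = 0.00931, 0.0115 and 0.000737). The KC call was lost without KC-LC library 2 (adjusted p = 0.0514).

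Of the Hnrnp genes, Hnrnph1 included, 14 of 20 were higher ex vivo in AM (70% against 22.9% of all genes). In PM 8 of 20 were (40% against 12.1%), in MG 4 (20% against 21.2%) and in KC 2 (10% against 19.4%). Hnrnpul1, a DNA- and RNA-binding hnRNP U relative, stood at 129, 152 and 155 CPM in sorted AM against 62.5, 37.9 and 62.1 CPM in AM-LCs (1.41 ± 0.22, adjusted p = 0.00213). Hnrnpa0, a binder of AU-rich elements, was at 23.3, 23.2 and 36.3 CPM against 8.82, 9.16 and 12.4 CPM there (1.43 ± 0.27, 0.00423). In PM Hnrnpd (AUF1), which binds AU-rich elements and directs mRNA decay, stood at 138, 112 and 118 CPM against 49.0, 48.8 and 74.4 CPM (1.09 ± 0.23, 0.0114). Hnrnph3, a relative of Hnrnph1, was higher ex vivo in MG (1.04 ± 0.27, 0.0237) and lost this call without any sorted MG library (adjusted p up to 0.0941). Hnrnpdl, the closest relative of Hnrnpd, was called in MG, KC and AM, with 0.91 ± 0.23 (0.0207) in KC, where the call was lost without sorted KC library 2 or any KC-LC library (adjusted p up to 0.0819).

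Hnrnp genes higher in vitro were 3 of 20 in MG (15% against 25.2% of all genes) and 1 of 20 in KC (5% against 14.4%). In PM and AM none was called, against 16.8% and 25.9% of all genes (0 also at an unadjusted p under 0.05 and by limma-voom and DESeq2, since no regulatory gene was). Hnrnpab stood at 94.7, 99.4 and 82.9 CPM in sorted MG against 247, 203 and 127 CPM in MG-LCs (-1.11 ± 0.28, adjusted p = 0.0211), a call lost without any sorted MG library (adjusted p up to 0.096) and with library size only (0.0533). Hnrnpc, which binds uridine tracts, was at -0.90 ± 0.15 in MG (0.00614). Hnrnpll (ENSMUSG00000024095, chr17:80029487-80062334, minus strand), known for exon choice in Ptprc (CD45) of lymphocytes, went opposite ways. It had 37.1, 32.2 and 32.5 CPM in sorted MG against 61.8, 74.3 and 101 CPM in MG-LCs (-1.27 ± 0.21, 0.00589). Sorted KC had 19.2, 40.7 and 15.9 CPM against 69.2, 63.1 and 68.7 CPM (-1.38 ± 0.36, 0.0224), a call lost without sorted KC library 3 or any KC-LC library (adjusted p up to 0.0638). In sorted AM it stood at 107, 116 and 124 CPM against 97.4, 72.3 and 67.0 CPM (0.55 ± 0.15, 0.0189), and AM lay 1.53 ± 0.32 above the mean of the others (interaction, adjusted p = 0.00246).

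Among the core genes, Prpf38b (ENSMUSG00000027881, chr3:108902805-108911727, minus strand), a paralogue of the tri-snRNP protein Prpf38a, showed the largest mean difference, Snrpn aside. It stood at 137, 136 and 125 CPM in sorted KC against 31.9, 25.8 and 39.3 CPM in KC-LCs (2.07 ± 0.24, adjusted p = 0.00122). In MG it was 110, 102 and 113 CPM against 34.0, 35.9 and 56.1 CPM (1.32 ± 0.23, 0.00627), and in PM 76.3, 93.8 and 104 CPM against 29.7, 28.4 and 45.5 CPM (1.40 ± 0.25, 0.00623). The AM libraries had 50.6, 57.6 and 57.6 CPM against 34.9, 38 and 26.1 CPM (0.74 ± 0.15, 0.00578), and no pair of groups overlapped. Prpf4b (ENSMUSG00000021413, chr13:34875302-34906064, plus strand), a kinase of tri-snRNP proteins, had 82.9, 77.2 and 77.4 CPM in sorted MG against 25.9, 38.7 and 47.1 CPM (1.05 ± 0.23, 0.0136). Its fold change was 1.51 ± 0.27 in KC (0.00592), 0.87 ± 0.20 in PM (0.0181) and 0.76 ± 0.13 in AM (0.00322). The PM call of Prpf4b was lost without sorted library 1 or 3 or PM-LC library 1 (adjusted p up to 0.0718).

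Prpf39, whose yeast counterpart belongs to U1 snRNP, was called higher ex vivo in MG, KC and AM. In sorted KC it stood at 33.2, 69.3 and 66.8 CPM against 18.3, 16.1 and 22.2 CPM (1.61 ± 0.33, adjusted p = 0.00912), a call lost without KC-LC library 2 (0.0516). Its MG call (1.09 ± 0.32, 0.0351) was kept only without MG-LC library 3 (adjusted p up to 0.125 without another). Prpf8, the large U5 protein at the centre of the spliceosome, stood at 139, 204 and 161 CPM in sorted AM against 70.8, 42.7 and 64.1 CPM (1.49 ± 0.24, 0.00217). Prpf31 and Prpf38a of the tri-snRNP lay on the other side. Prpf31 was at 30.8, 38.5 and 34.7 CPM in sorted MG against 70.5, 64.4 and 54.0 CPM (-0.91 ± 0.17, 0.00878), which was not called without sorted MG library 1 or 3 (adjusted p up to 0.0587). Prpf38a was at -1.03 ± 0.33 in KC (0.0458) and -0.45 ± 0.15 in AM (0.0386), and each call was kept without only 1 of the 6 libraries, sorted KC library 2 and AM-LC library 3 (adjusted p up to 0.132 and 0.131 without another). Both calls were also lost with library size only (0.102 and 0.707) and without the filter (0.0529 and 0.101), that in KC with RLE size factors (0.0553) and that in AM in the fit of all 24 libraries (0.287).

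The SF3 subunits went both ways. Sf3b1, the branch-point clamp and the largest subunit, stood at 570, 538 and 557 CPM in sorted MG against 193, 254 and 315 CPM in MG-LCs (1.08 ± 0.24, adjusted p = 0.0146). In AM it was 340, 363 and 355 CPM against 222, 178 and 169 CPM (0.89 ± 0.12, 0.00126). Sf3a2, a U2 protein of the SF3a trimer, was higher ex vivo in AM (36.0, 30.6 and 44.3 CPM against 18, 11.6 and 19.5 CPM; 1.15 ± 0.25, 0.00835) and in MG (0.57 ± 0.18, 0.0412). The MG call of Sf3b1 was lost without any sorted MG library, and that of Sf3a2 without any sorted MG library or MG-LC library 3 (adjusted p up to 0.0641 and 0.152) or without the filter (0.0743).

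The small subunits Sf3b5 and Sf3b6 lay on the other side in MG. Sf3b5 (ENSMUSG00000078348, chr10:13005343-13009183, plus strand) had 19.8, 23.8 and 20.8 CPM in sorted MG against 63.6, 74.1 and 50.8 CPM in MG-LCs (-1.60 ± 0.19, adjusted p = 0.00236). In KC it was 60.5, 47.7 and 36.9 CPM against 90.5, 99.4 and 68.2 CPM (-0.80 ± 0.27, 0.0539), and in PM and AM 0.12 ± 0.22 and 0.09 ± 0.13 with overlapping groups. MG lay 1.34 ± 0.24 below the mean of the others (-1.34, interaction adjusted p = 0.000515), and PM 0.88 ± 0.24 above it (0.02). The PM interaction was not called without sorted PM library 1 or PM-LC library 3 (adjusted p up to 0.0941) or with library size only (0.0872). Sf3b6, which contacts the branch-point region, had 30.2, 31.6 and 29.1 CPM in sorted MG against 83.4, 71.7 and 53.5 CPM (-1.25 ± 0.20, 0.00539). It was also called lower ex vivo in KC (46.8, 39.5 and 38.2 CPM against 90.4, 118 and 82.2 CPM; -1.19 ± 0.24, 0.00824), and in AM at -0.44 ± 0.15 (0.0493) with overlapping groups. Sf3b4 was the 1 gene called higher in vitro in PM (-0.66 ± 0.20, 0.0443), and not with library size only (0.0863) or without the filter (0.0786).

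The Snrp genes, which include the Sm ring, had the lowest median of the classes in MG. Snrpd2 (ENSMUSG00000040824, chr7:19149722-19153542, plus strand) stood at 6.21, 6.85 and 5.49 CPM in sorted MG against 44.2, 21.3 and 16.4 CPM in MG-LCs (-2.20 ± 0.42, adjusted p = 0.00877), and Snrpg at 3.22, 4.98 and 3.13 CPM against 23.0, 13.2 and 12.2 CPM (-2.15 ± 0.38, 0.00694). Snrpd1 (-1.53 ± 0.37, 0.0184), Snrpe (-1.54 ± 0.32, 0.0107) and Snrpd3 (-1.05 ± 0.24, 0.0164) were called with them, and Snrpb (-0.60 ± 0.22, 0.0678) and Snrpf (-1.05 ± 0.46, 0.104) were not. Sorted and cultured libraries did not overlap for any of these 7. The Snrpd2 call was lost without sorted MG library 1 or 3 (adjusted p up to 0.0553). In PM their fold changes ran from -0.04 (Snrpe) to 0.91 (Snrpf), with adjusted p of 0.186 or more. In AM Snrpd2 was lower ex vivo (23.8, 19.1 and 19.1 CPM against 32.4, 30.8 and 29.7 CPM; -0.59 ± 0.16, 0.017) and Snrpb higher (315, 279 and 310 CPM against 228, 227 and 183 CPM; 0.50 ± 0.11, 0.00935). The AM call of Snrpd2 was lost without sorted AM library 2 or 3 (adjusted p up to 0.0727). Both AM calls were lost when all 24 libraries were fitted together (0.247 and 0.0647), and that of Snrpd2 also with library size only (0.296).

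**Figure D3:**
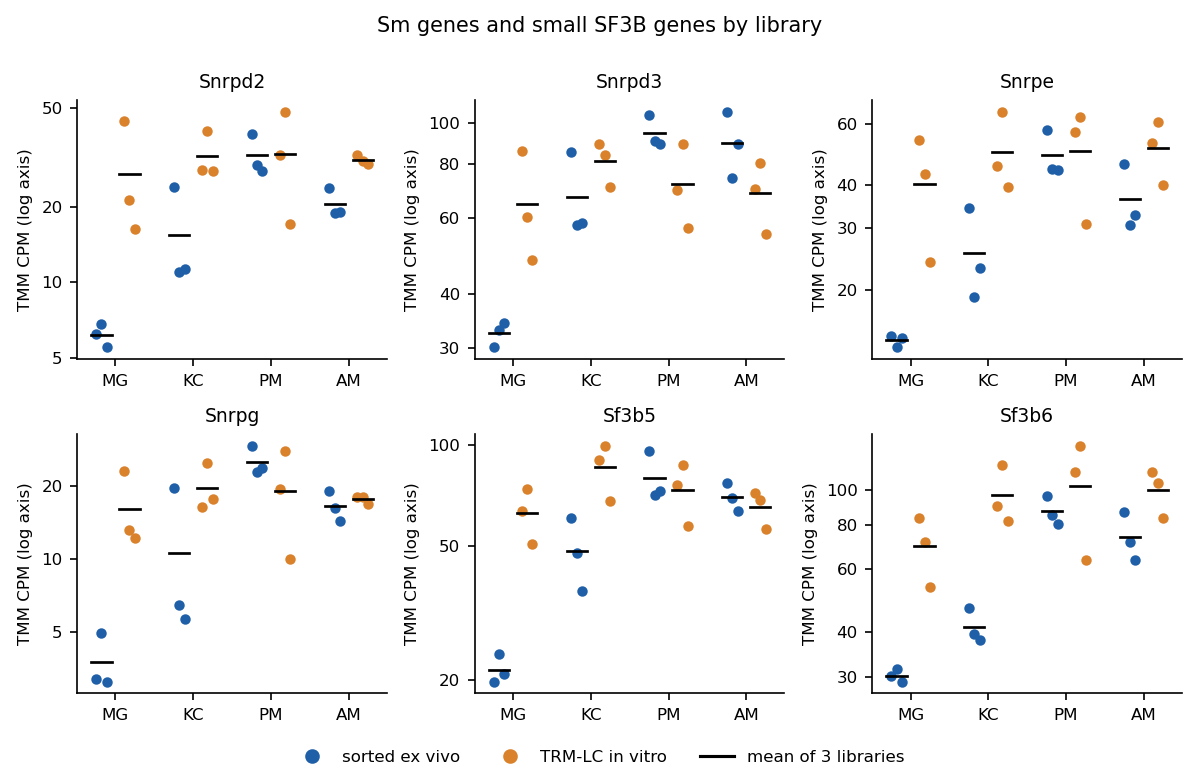
CPM of Sm ring and SF3b genes in every library (points, log axis), ex vivo beside in vitro for each population, with bars at the group means. In MG the sorted libraries of Sf3b5, Sf3b6 and the Sm genes lie below the MG-LC libraries, and in PM and AM the groups mostly overlap.

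Among sorted KC, library 1 had fewer KC markers and more proliferation, T cell, B cell and neutrophil marker RNA. It had the highest Sm gene levels, for example 24.2 CPM of Snrpd2 against 11.0 and 11.4 CPM, and the lowest Clk1 (116 against 255 and 183 CPM). Proliferation genes also moved with the MG contrast, where all 8 were higher in vitro and their sum was 6.85 to 12.4 CPM in sorted MG against 128 to 616 CPM in MG-LCs. In KC their median log2 fold change was -1.16, in PM 0.23 and in AM 0.03. The 12 genes of a dissociation response list had 2 higher ex vivo and 3 in vitro in MG, 2 and 7 in KC, 1 and 7 in PM and 6 and 1 in AM. Their part in the splicing factor results was not tested.

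The balance of the classes was then read within each library, where composition scaling cancels. The median log2 CPM of the regulatory genes minus that of the core genes was 1.41 ± 0.01 (SD, n = 3) in sorted MG and 0.84 ± 0.20 in MG-LCs. It was 1.19 ± 0.22 against 0.66 ± 0.10 in KC, 0.99 ± 0.06 against 0.58 ± 0.37 in PM and 1.02 ± 0.08 against 0.65 ± 0.15 in AM. Only in PM did the libraries overlap, through PM-LC library 3 at 1.00. The Clk genes minus the core genes stood at 1.45 in sorted MG against -0.48 in MG-LCs, at 0.74 against -0.37 in KC, at -0.07 against -0.12 in PM and at 0.37 against -0.31 in AM. As summed CPM on the log2 scale, the ratio of sorted to cultured cells was 0.41 for regulatory, 1.89 for Clk and 0.12 for core genes in MG, and 0.15, 1.46 and 0.09 in KC. It was 0.44, 0.93 and 0.22 in PM and 0.47, 0.72 and 0.43 in AM. With library size only these ratios were higher, at 0.39 to 0.84 for regulatory, 1.04 to 2.08 for Clk and 0.32 to 0.80 for core genes. As the median of the members, the regulatory ratio was 0.47 in KC and 0.71 in PM, the Clk ratio 0.35 in PM, and the core ratio turned to -0.27 in MG and -0.06 in KC. These differences between classes are descriptions without a test.

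**Figure D4:**
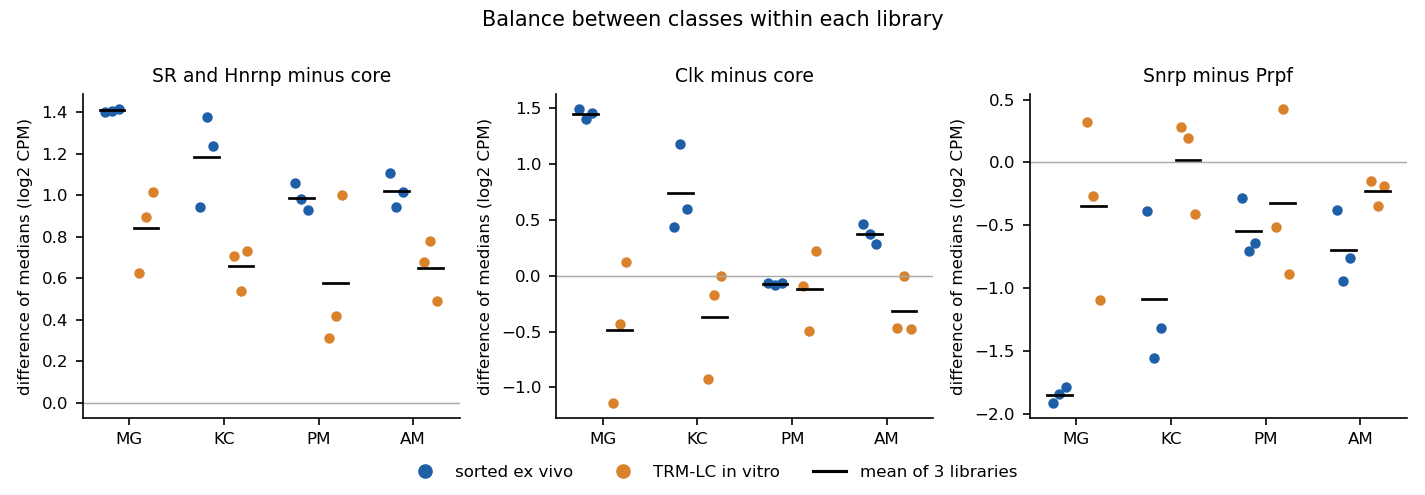
Median log2 CPM of the regulatory genes, and of the Clk genes, minus the median log2 CPM of the core genes, in every library by group, with bars at the group means. For the regulatory genes the sorted libraries lie above the cultured ones in MG, KC and AM, and PM-LC library 3 at 1.00 reaches the sorted PM.

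The classes differ in exon length, which moved with the contrast in all genes. The median exon length was 2389 bases for Snrp genes, 3841 for SF3, 3988 for SR, 5671 for Prpf, 5898 for Hnrnp and 6965 for Clk. Over all genes in MG the median log2 fold change was -0.80 for genes under 2 kb and 0.19 for genes over 8 kb. Across genes, Spearman's rho between fold change and exon length was 0.13 to 0.19 in the 4 comparisons, and 0.25 to 0.43 across the 67 or 68 splicing factors. Genes are not independent replicates and share their libraries. Within length bands of the mean contrast, the regulatory and core medians were 0.55 (n = 10) and -0.18 (n = 17) under 4 kb, 0.47 (n = 15) and 0.27 (n = 12) at 4 to 8 kb, and both 0.68 (n = 5 each) above 8 kb. In MG they were 0.58 and -1.05 under 4 kb, 0.16 and 0.15 at 4 to 8 kb, and 0.36 and 1.05 above 8 kb. In both contrasts the core median was higher in each longer band, and the regulatory median had no such order. In KC, PM and AM the core median was also higher in each longer band. The regulatory median was so in AM (0.58, 0.64 and 0.72) and not in KC or PM. Clk medians at 4 to 8 kb and above 8 kb (n = 2 each) were 1.04 and 1.23 in the mean contrast and 1.70 and 1.42 in MG.

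The splicing factors also differ in how many annotated transcripts lack an open reading frame or are marked for nonsense-mediated decay, with a median of 8 per Clk gene, 6 per Prpf, 4 per SR, 3.5 per Hnrnp, 3 per SF3 and 1.5 per Snrp gene. Across the splicing factors, Spearman's rho between this number and the fold change was 0.59 in MG, 0.35 in KC, 0.30 in PM and 0.17 in AM. This number was not separated from exon length, and reads on them were not counted apart from the coding ones.

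Differences between populations were tested directly as the ex vivo against in vitro contrast of 1 population minus the mean of the other 3. For MG, 2 splicing factors lay above and 10 below the others, against 7.55% and 12.3% of all genes. For KC the counts were 2 and 3, against 10.4% and 5.06%, for PM 3 and 1, against 6.96% and 6.28%, and for AM 9 and 1, against 9.45% and 7.68%. By class, the MG genes below the others included 4 Hnrnp and 4 Snrp genes, and the 2 above were Clk4 and an SR gene, Srsf9. The members with the smallest adjusted p in MG were Sf3b5 and Snrpd3, the latter at -1.17 ± 0.26 (0.00296). In KC, Hnrnpl, which binds CA repeats, was at -0.73 ± 0.21 (0.022), from sorted values of 148, 103 and 129 CPM against 164, 144 and 157 CPM in KC-LCs. In AM, Snrpb lay 0.91 ± 0.23 above the others (0.00936). The Hnrnpl interaction was not called without sorted KC library 2 or KC-LC library 1 or 3, (adjusted p up to 0.0731), nor with RLE size factors, with library size only or without the filter (0.0619, 0.0601 and 0.0744).

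**Figure D5:**
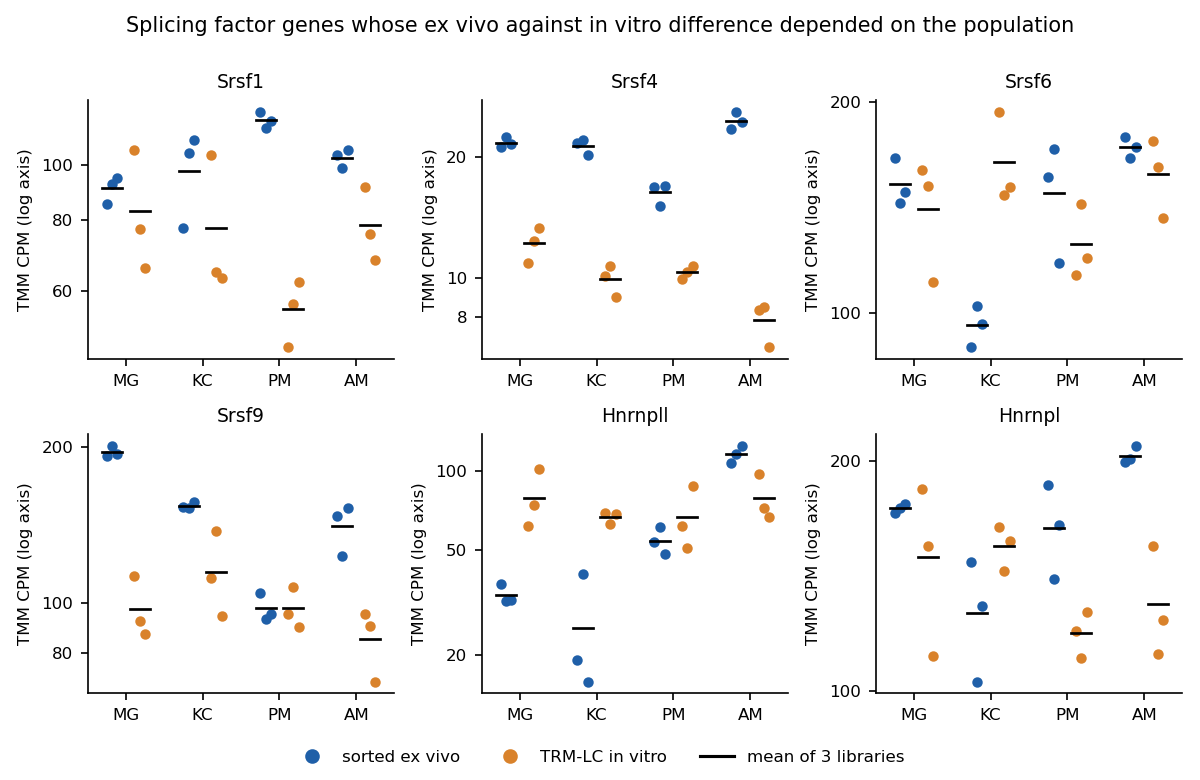
CPM in every library (points, log axis) of splicing factors whose ex vivo against in vitro difference varied between populations, ex vivo beside in vitro, with bars at the group means. Hnrnpll lies lower ex vivo in MG and KC and higher ex vivo in AM.

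Snrpn (ENSMUSG00000102252, chr7:59982495-60140219, minus strand), the imprinted neuronal relative of Snrpb, was nearly confined to sorted KC among the sorted cells. Reads per library were 309, 466 and 367 in sorted KC and 0, 4 and 1 in KC-LCs. Sorted PM had 0 reads in all 3 libraries and sorted AM 0, 0 and 1, whereas MG-LCs had 147, 3 and 70 and AM-LCs 4, 18 and 86. The sorted and cultured KC libraries did not overlap, and the KC difference was called (adjusted p = 0.00175), as was its excess over the other populations (0.000576). Its fitted fold changes depend on groups near 0 reads and are no bound. Snrpn shares exons with Snurf, Gm38393 and Gm18908, so reads of these genes cannot be told apart.

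Between the sorted populations, each against the mean of the other 3, 15 splicing factors were higher and 20 lower in MG, 7 and 7 in KC, 14 and 8 in PM and 21 and 12 in AM. Of all genes, 26.2% and 25.2% were called in MG, 24.1% and 12.4% in KC, 20.8% and 15.1% in PM, and 24.7% and 21.9% in AM. MG had the lowest Sf3b5 (-1.64 ± 0.17, adjusted p = 1.24e-05) and Sf3b6 (-1.14 ± 0.13, 2.26e-05) and the highest Hnrnph1 (1.05 ± 0.12, 1.6e-05), each without overlap with the other sorted libraries. KC were lowest in Srsf6 (-0.69 ± 0.12, 0.000942) and highest in Prpf38b (0.72 ± 0.10, 0.000239) and Snrpn. PM were lowest in Srsf9 (-0.71 ± 0.10, 0.000134) and had Sf3b6 at 0.97 ± 0.12 (4.98e-05) and Sf3b5 at 0.96 ± 0.15 (0.000386), both overlapping with AM. AM were lowest in Prpf38b (-0.98 ± 0.12, 3.09e-05) and highest in Hnrnpll (1.70 ± 0.21, 4.57e-05) and Prpf31 (0.79 ± 0.10, 4.74e-05). Clk1 was lowest in sorted AM, at 62.8 to 67.4 CPM against 116 to 255 CPM in the other sorted libraries (-1.53 ± 0.20, adjusted p = 6.46e-05).

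Except in AM-LCs, few genes of any kind were called between the cultured populations. Their libraries also spread more, since chi-squared values of pairs within a group, over their degrees of freedom, were 157 to 924, against 13.8 to 62.3 in sorted MG, PM and AM and 93.4 to 347 in sorted KC, so the low counts do not show likeness. Against the mean of the other 3, no splicing factor was called in MG-LCs, KC-LCs or PM-LCs, where 0.56%, 0.108% and 0.527% of all genes were (either direction). At an unadjusted p under 0.05, edgeR gave 13, 3 and 1 splicing factors there, DESeq2 gave 4, 1 and 0 after adjustment, and limma-voom 0, 0 and 0. In AM-LCs 3 were called, all lower, against 8.38% of all genes higher and 4.71% lower. Hnrnpdl stood at 33.7, 22.1 and 23.9 CPM against 48.5 to 65.7 CPM in the other LCs (-1.03 ± 0.17, adjusted p = 0.00443), and Hnrnpd at 45.1, 32.8 and 32.5 CPM against 48.8 to 93.6 CPM (-0.91 ± 0.21, 0.018). Snrpb2, a U2 protein, was at -0.89 ± 0.24 (0.0357) with overlapping libraries. Without AM-LC library 2 or 3 only 1 gene was called, and without MG-LC library 1 there were 5. Hnrnpdl was called without every single library, and the calls of Hnrnpd and Snrpb2 were lost without AM-LC library 2 or 3 (adjusted p up to 0.0921 and 0.163), that of Snrpb2 also without KC-LC library 2 or 3, MG-LC library 2 or 3 or PM-LC library 1 or 2, and without the filter (0.0518). AM-LCs alone had GM-CSF, no glucose and atmospheric oxygen, so tissue and medium cannot be told apart.

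Other splicing genes, listed by role, were read in the mean contrast, where 24.9% of all genes were higher ex vivo and 31.6% in vitro. Of 17 SR-related proteins 15 were higher ex vivo (median log2 fold change 0.90), with the speckle protein Pnn at 1.72 ± 0.14 (adjusted p = 8.39e-09) and the splicing coactivator Srrm1 at 1.12 ± 0.10 (3.07e-08). Of 12 genes of splice site recognition 9 were higher ex vivo (median 0.55), led by Luc7l3, a U1-associated protein, at 1.60 ± 0.13 (4.71e-09) and the branch-point binder Sf1 at 0.66 ± 0.09 (4.23e-06). Of 41 other regulatory RNA-binding genes 23 were higher ex vivo and 4 in vitro (median 0.43), with Rbm5 at 1.34 ± 0.08 (1.87e-10) and Rbm25 at 1.27 ± 0.13 (9.63e-08). Of 15 exon junction and nonsense-mediated decay genes 9 and 2 were called (median 0.84), with the helicase Upf1 at 1.45 ± 0.12 (1.47e-08) and Casc3 of the exon junction complex at 1.26 ± 0.10 (1.05e-08).

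The other core lists were divided. Of 38 further snRNP and spliceosome genes 12 were higher ex vivo and 14 in vitro (median -0.10), with the minor-spliceosome protein Snrnp25 at -1.70 ± 0.16 (5.58e-08) and the second-step factor Cdc40 at 1.08 ± 0.14 (3.69e-06). Of 8 genes of the SMN complex, which loads Sm rings onto snRNA, 2 were higher in vitro (median -0.11), namely Strap at -1.0 ± 0.10 (1.02e-07) and Gemin7 at -0.57 ± 0.14 (0.00157). Of 5 other SR protein kinases 1 was called, Dyrk1b at 0.63 ± 0.18 (0.00603), and Dyrk1a stood at 0.19 ± 0.13 (0.246). The Clk genes, all 4 called, had a median of 1.04 in the same contrast.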

How the data were processed

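RNA sequencing libraries were prepared with the SMARTer v4 kit, which does not mark strand. The authors deposited 1 table of raw counts of reads per Ensembl gene, not normalised, made per the methods and the submitters' processing notes by trimming with Trimmomatic, aligning with STAR and counting. The notes give Trimmomatic 0.36 and STAR 2.5.2b, and the methods other versions. The genome named in the notes is human hg19, that in the methods mouse mm10, and the identifiers are mouse. Coordinates and exon lengths came from GENCODE M21 (GRCm38), and promoters from RefSeq (GRCm38.p6).

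Counts were analysed in R 4.3.3 with edgeR 4.0.16 (TMM factors, filterByExpr with a minimum count of 10, glmQLFit and glmQLFTest, two-sided), with Benjamini-Hochberg adjustment over all genes tested. The study used limma-voom. Here limma 3.58.1 and DESeq2 1.42.0 were alternatives. CPM shown per library carry TMM factors of all 24 libraries, and log2 fold changes come from the fit of each comparison, on the 6 libraries concerned unless stated. Scripts were tested on simulated data with 200 changed genes per comparison. True log2 changes of 1 were called for 0 of 100 genes in MG, 2 in KC, 3 in PM and 37 in AM. Changes of 2 were called for 8, 44, 70 and 93 of 100. The data hold many more called genes, so these shares do not carry over. A gene not called in a population is not shown to be unchanged there. The floor of 3 reads in a library equals 0.0661 to 0.115 CPM, and covers counting error only.

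The members and gene lists were chosen with earlier results of these data known. Named were every Srsf and Clk gene, per population and class the 2 called genes with the largest change in each direction among those with an average log2 CPM of at least 3 and no overlap, the 3 with the smallest adjusted p in each other contrast, 2 of each other list, and genes that failed the filter, and 1 gene that this rule named is not reported here. Others were named as counts of 5 or fewer, or after their values were seen (Clk4 between populations, Clk1 between sorted populations, the other Sm genes, Hnrnpc, and Srsf9, Sf3b6 and Prpf39 beyond the rule). Samples were not paired by replicate number in the main tests. The correlations of same-numbered deviations were -0.10 to 0.06, which with 3 libraries per group cannot exclude pairing. No pair of libraries in a group agreed within sampling noise (chi-squared per degree of freedom 13.8 or more).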

Additional observations from a re-analysis of the deposited data

Results flagged for a closer look

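The difference between ex vivo and in vitro libraries varied between populations for 10 of the named splicing factors, in 11 tests of 1 population against the mean of the other 3 (log2 scale, edgeR quasi-likelihood test, adjusted over all genes). In MG, Sf3b5 stood at -1.34 ± 0.24 (SE, adjusted p = 0.000515) and Snrpd3 at -1.17 ± 0.26 (0.00296). In KC, Srsf6 stood at -0.94 ± 0.20 (0.00375) and Hnrnpl at -0.73 ± 0.21 (0.022). The KC value of Snrpn was 12.99 ± 2.13 (0.000576), a fitted value that rests on groups with 0 reads and is no measure of size. In PM, Sf3b5 was at 0.88 ± 0.24 (0.02), Srsf1 at 0.81 ± 0.24 (0.0259) and Srsf9 at -0.72 ± 0.18 (0.0108). In AM, Hnrnpll was at 1.53 ± 0.32 (0.00246), Snrpb at 0.91 ± 0.23 (0.00936) and Srsf4 at 0.79 ± 0.19 (0.00713).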

How the results depend on the processing

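No named gene turned its direction under any setting in which it was called. Of 60 calls of named genes between ex vivo and in vitro, 33 were kept without every single library and 44 under every other setting. Of the 11 calls between populations 8 and 7 were, of the 12 between sorted populations 12 and 12, and of the 3 between LCs 1 and 2. With 1 library left out, counts of genes (higher ex vivo, higher in vitro) ranged from 7 to 22 and 5 to 15 in MG, 6 to 13 and 1 to 9 in KC, 5 to 24 and 0 to 3 in PM, 25 to 34 and 0 to 4 in AM, and 32 to 37 and 11 to 14 in the mean contrast. Calls between populations then ranged from 22 to 42 (31 with all libraries), between sorted populations from 85 to 124 (104) and between LCs from 1 to 5 (3). Such a fit has fewer samples.

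Genes higher in vitro were 7 in KC with limma-voom, and 7 in KC and 2 in PM with DESeq2. With a fold above 1.5 as well, AM had 1. With library size only they were 2 in KC, 0 in PM, 0 in AM and 8 in the mean contrast, and without the filter 2 in KC and 0 in PM. Fitting all 24 libraries gave 18 higher ex vivo and 11 in vitro in KC, 4 in vitro in PM and 1 in AM. Calls between populations were 47 with DESeq2 and 19 without the filter, and those between LCs 9 with DESeq2 and 8 with library size only. A replicate block gave 11 genes higher ex vivo in MG and 9 in PM, and 2 higher in vitro in KC and 0 in PM. The block ended the calls of Sf3b1, Sf3a2, Srsf10 and Srsf4 in MG and of Srsf6 and Prpf38a in KC. It also ended those of Srsf2 and Sf3b4 in PM and of Srsf1, Clk3 and Prpf38a in AM. No label says whether a replicate number marks a shared animal. Not every library correlated best with its own number, which with 3 libraries per group cannot exclude pairing. The cause of these shifts was not tested.

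The log2 ratios of summed CPM moved with library size only to 0.61 (regulatory) and 0.32 (core) in MG, 0.39 and 0.32 in KC, 0.56 and 0.33 in PM, and 0.84 and 0.80 in AM, and for Clk to 1.09 in AM. As a median of the members they were 0.30 and -0.27 in MG, 0.47 and -0.056 in KC, 0.71 and 0.30 in PM, and 0.67 and 0.30 in AM, and for Clk 1.05 in KC, 0.35 in PM and 0.99 in AM. Depth limits Srsf12 and Snrpn, with few reads in most groups.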
